A study of Mus musculus with 8 samples.

Results

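The smooth muscle contractile apparatus was followed through 9 genes in cells grown from the subcutaneous fat of mice: Acta2, Actg2, Myh11, Myl9, Tagln, Cnn1, Tpm1, Tpm2 and Lmod1. They were taken by gene symbol, through the transcript accession that each array probe carries, and were 9 of 29585 genes or unnamed features tested. All 9 were on the array, with 17 probes among them, and none was lost to the filter on dim probes. The cells came from male C57BL/6 mice that were 6 weeks old when feeding began. C12 denotes control chow for 12 weeks, HF12 a high-fat diet (60% fat) for 12 weeks, C24 control chow for 24 weeks and HF24 the same high-fat diet for 24 weeks. The labels call the 12-week groups young and the 24-week groups old. Abdominal subcutaneous fat was digested with collagenase, and the cells that stuck to uncoated plastic were passaged and named adipose tissue derived mesenchymal stem cells, per the labels. RNA from each of the 4 groups was hybridised to 2 one-colour Agilent mouse arrays, 8 in all.

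Whether both arrays of a group stem from separate mice or cultures is not given in the labels. A p-value here is set by the spread between such arrays alone, which may be technical, and precision is limited by their number. The 12-week arrays filled slide row 1 and the 24-week arrays row 2, so feeding time, the age of the mice and slide row cannot be told apart. Chow arrays filled slide columns 1 and 2 and high-fat arrays columns 3 and 4, so diet and slide column cannot be told apart either. Of all probes, 57.6% to 67.2% were well above background, with the lower shares on the 24-week arrays. Of 10 stromal marker genes, 9 were on the array and all 9 were well above background in every group. All 10 endothelial and all 10 pericyte markers were above it too, as were at least 10 of 11 macrophage markers. In such bulk RNA, more cells of a contractile type and more contractile RNA per cell cannot be told apart.

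In smooth muscle, filaments of actin and myosin slide past each other when myosin is activated through its regulatory light chain. Calponin, transgelin and the tropomyosins lie along the actin filaments, and leiomodin helps new filaments form. Many of these genes are switched on by serum response factor (SRF), which binds a short DNA element called the CArG box together with myocardin or related coactivators. The same genes are also raised in myofibroblasts and in many stromal cells on stiff plastic, often under transforming growth factor beta.

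Because most of these genes moved together, the 250 bases before the transcription start were searched for CArG boxes (CC, then 6 bases that are each A or T, then GG; the element reads alike on both strands). Promoters from RefSeq, assembly GRCm38.p6, were at hand for 6 of the 9 genes: Acta2, Myl9, Cnn1, Tpm1, Tpm2 and Lmod1. The strict element was present in 1 of these 6, Myl9, and in 1.47% of all 32851 promoters of the table. When 1 of the 6 core bases was allowed to be G or C, a choice made after the strict search, Myl9 and Acta2 held 2 elements each, and 8.59% of all promoters held at least 1. Both stretches are shown because they carry these elements, which are in capitals; the letters run 5′ to 3′ along the gene. A match is a stretch of letters and not evidence of binding.
Acta2, chr19:34255374-34255523 (minus strand, positions −150 to −1 from the start): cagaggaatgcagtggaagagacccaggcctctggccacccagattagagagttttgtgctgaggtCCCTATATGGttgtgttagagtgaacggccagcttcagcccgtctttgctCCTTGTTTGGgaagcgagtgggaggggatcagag
Myl9, chr2:156775264-156775407 (plus strand, positions −200 to −57 from the start): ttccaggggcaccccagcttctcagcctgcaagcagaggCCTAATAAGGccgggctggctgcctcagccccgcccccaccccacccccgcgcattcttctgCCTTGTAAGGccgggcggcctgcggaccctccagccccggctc

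In Myl9 the elements began 161 and 99 bases before the start, and the first of them, CCTAATAAGG, is the strict match. In Acta2 they began at 84 and 34 bases, with a G or C in the core of each. The element CATTCC, on either strand, which is bound by TEAD factors, was found in 3 of the 6 promoters. It lay 146 bases before the start in Acta2, 130 in Lmod1 and 56 in Tpm1, and 12.6% of all promoters held it.

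The levels below are log2 of the processed spot intensity minus the 75th percentile of that array, so that 0 is the brightness that 75% of the probes do not exceed. Each gene is given by its brightest probe, and levels are compared between groups only, since brightness differs from probe to probe. Every one of the 17 probes was well above background on all 8 arrays, and no spot was saturated.

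Among the actins, Acta2 encodes smooth muscle alpha-actin, the usual marker of myofibroblasts and mural cells. Its level was 7.19 and 7.41 in C12, 7.66 and 7.61 in HF12, 7.77 and 7.84 in C24, and 8.39 and 8.35 in HF24. Actg2, the gamma-actin of visceral smooth muscle, stood at 3.86 and 4.02 in C12, 4.42 and 4.40 in HF12, 4.52 and 4.62 in C24, and 4.99 and 4.97 in HF24. In both genes the 4 groups rose in the order C12, HF12, C24, HF24, and no group overlapped its neighbour. Actin genes are close relatives in sequence, and whether a probe of one also binds the RNA of another was not tested.

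Of the myosin genes, Myh11 encodes the smooth muscle heavy chain, a marker of mature smooth muscle. Myh11 had levels of −1.90 and −1.81 in C12, −1.93 and −1.91 in HF12, 0.15 and 0.24 in C24, and 0.11 and 0.08 in HF24. It was high in both 24-week groups and low in both 12-week groups, with little separating the diets. Myl9, the regulatory light chain whose phosphorylation starts contraction, was at 6.47 and 6.39 in C12, 6.65 and 6.74 in HF12, 7.17 and 7.12 in C24, and 7.56 and 7.54 in HF24. It followed the 4-step order of the actins without overlap.

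Tagln encodes transgelin (SM22), which binds and bundles actin. Its level was 7.14 and 7.21 in C12, 7.57 and 7.61 in HF12, 7.77 and 7.78 in C24, and 8.23 and 8.19 in HF24. Cnn1, calponin, which binds actin and slows the myosin motor, was at 2.74 and 2.67 in C12, 3.46 and 3.47 in HF12, 3.68 and 3.68 in C24, and 3.96 and 3.97 in HF24. Both took the same order of groups, but the largest step of Cnn1 between neighbours in that order lay between C12 and HF12.

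The tropomyosins Tpm1 and Tpm2 run along the actin filament and govern access of myosin to it. Tpm1 was at 3.90 and 4.03 in C12, 4.24 and 4.13 in HF12, 4.52 and 4.68 in C24, and 4.52 and 4.50 in HF24. Tpm2 was at 4.11 and 4.30 in C12, 4.61 and 4.65 in HF12, 4.76 and 4.82 in C24, and 5.53 and 5.49 in HF24. Tpm2 kept the order of the actins. In Tpm1 both HF24 arrays were below both C24 arrays, but barely, with the nearest at 4.516 in HF24 and 4.523 in C24. This difference did not pass the test given below. Lmod1, leiomodin 1, a nucleator of actin filaments, was at −4.13 and −4.01 in C12, −4.21 and −3.99 in HF12, −2.87 and −2.88 in C24, and −2.42 and −2.51 in HF24. Its 2 groups at 12 weeks overlapped, and both 24-week groups lay above them.

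**Figure D1:**
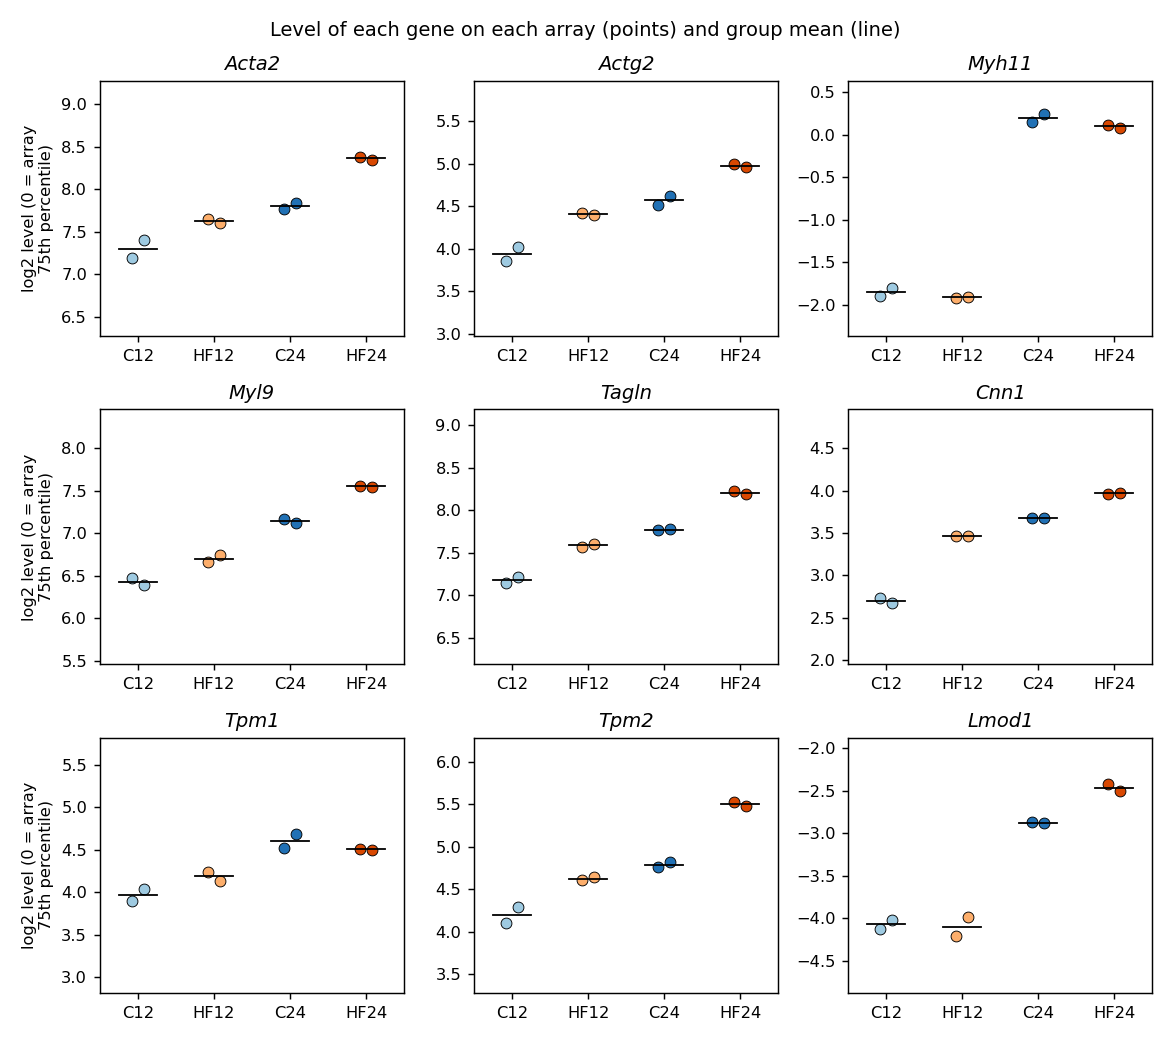
Level of each of the 9 genes (vertical axis: log2 intensity, 0 = 75th percentile of the array) in the 4 groups (horizontal axis); points are the 2 arrays of a group and lines their mean. Of the 9 genes 6 climb from C12 through HF12 and C24 to HF24, while Myh11, Tpm1 and Lmod1 take other orders.

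In all, 6 of the 9 genes had the order C12, HF12, C24, HF24 with no overlap between neighbours (Acta2, Actg2, Myl9, Tagln, Cnn1 and Tpm2), and 3 had another order. The tests that follow come from a limma fit to all genes, with Benjamini-Hochberg adjustment over the 29585 features and a threshold of 0.05. Changes are differences of log2 levels ± the standard error, with 2 arrays per group. The comparisons share groups, so their results are not independent of each other.

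The first comparison asks how the genes differ with diet after the shorter feeding, HF12 against C12. In HF12 6 of the 9 were higher and 0 lower, beside 13.6% of all features higher and 17.4% lower. The median change of the 9 was 0.33, against −0.03 over all features. Calponin changed most: Cnn1 rose by 0.76 ± 0.05 (1.69-fold, adjusted p = 1.87e-04). Actg2 rose by 0.47 ± 0.07 (adjusted p = 0.00552), Tpm2 by 0.43 ± 0.08 (adjusted p = 0.0101) and Tagln by 0.41 ± 0.06 (adjusted p = 0.00295). Acta2 rose by 0.33 ± 0.09 (1.26-fold, adjusted p = 0.0333) and Myl9 by 0.27 ± 0.06 (adjusted p = 0.0204). Tpm1 (0.22 ± 0.09, adjusted p = 0.104), Myh11 (−0.06 ± 0.06, adjusted p = 0.507) and Lmod1 (−0.03 ± 0.09, adjusted p = 0.837) did not pass. In 7 of the 9 both HF12 arrays were above both C12 arrays, which held for 30.1% of all features.

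Some calls at 12 weeks were lost in fits without 1 array, while the changes stayed above 0. Without a 24-week array the change of Acta2 was still 0.33. The call of Acta2 was lost in 7 of the 8 fits that left out 1 array, every one except that without C12 replicate 2, with adjusted p up to 0.143, and under quantile normalization (0.22, adjusted p = 0.11). Myl9 failed in 3 of these fits, with C12 replicate 2 (adjusted p = 0.0728), HF12 replicate 1 (adjusted p = 0.0508) or the other HF12 array (adjusted p = 0.101) left out, and Tpm2 in 1, with HF12 replicate 2 left out (adjusted p = 0.058). Without that last array 3 genes were called, Cnn1, Tagln and Actg2.

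At 24 weeks, HF24 against C24, 7 of the 9 genes were higher in HF24 and 0 lower, beside 15.1% of all features higher and 19% lower. The median change was 0.41, against 0.02 over all features. Tpm2 rose by 0.72 ± 0.08 (1.64-fold, adjusted p = 0.00138) and Acta2 by 0.56 ± 0.09 (1.48-fold, adjusted p = 0.00459). Tagln (0.44 ± 0.06, adjusted p = 0.0023), Myl9 (0.41 ± 0.06, adjusted p = 0.00428), Actg2 (0.41 ± 0.07, adjusted p = 0.00831), Lmod1 (0.41 ± 0.09, adjusted p = 0.0177) and Cnn1 (0.29 ± 0.05, adjusted p = 0.0092) rose too. Myh11 (−0.10 ± 0.06, adjusted p = 0.281) and Tpm1 (−0.09 ± 0.09, adjusted p = 0.441) did not pass. Both HF24 arrays were above both C24 arrays in 7 of the 9 genes and in 37.5% of all features. The calls of 2 genes did not hold in every fit without 1 array. Their changes in these fits were 0.275 to 0.295 (Cnn1) and 0.369 to 0.454 (Lmod1). Cnn1 lost its call without HF24 replicate 1 (adjusted p = 0.0514) or replicate 2 (0.0577), and Lmod1 without C24 replicate 1 (0.0691), C24 replicate 2 (0.0667) or HF24 replicate 1 (0.0878).

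The contractile genes were higher in the older, longer-fed groups on either diet. On chow, C24 against C12, all 9 genes were higher, beside 23.9% of all features higher and 22.2% lower. The median change was 0.64, against 0.02 over all features. The change was largest in Myh11, the marker of mature smooth muscle, which rose by 2.05 ± 0.06 (4.14-fold, adjusted p = 1.02e-05). Lmod1 rose by 1.20 ± 0.09 (2.29-fold, adjusted p = 2.14e-04) and Cnn1 by 0.98 ± 0.05 (1.97-fold, adjusted p = 5.8e-05). The other 6 rose by 0.51 (Acta2, adjusted p = 0.00482) to 0.72 (Myl9, adjusted p = 3.3e-04). All 9 calls held in each of the 8 fits that left out 1 array.

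On the high-fat diet, HF24 against HF12, all 9 genes were again higher, beside 22.5% of all features higher and 24.4% lower. The median change was 0.74, against −0.01 over all features. Myh11 rose by 2.01 ± 0.06 (4.04-fold, adjusted p = 1.36e-05) and Lmod1 by 1.64 ± 0.09 (3.11-fold, adjusted p = 9.06e-05). Tpm2 (0.88 ± 0.08, adjusted p = 4.94e-04), Myl9 (0.85 ± 0.06, adjusted p = 2.23e-04) and Acta2 (0.74 ± 0.09, adjusted p = 0.00131) followed. Tagln (0.62), Actg2 (0.57) and Cnn1 (0.50) rose as well, with adjusted p of 0.00191 or less. Tpm1 rose by 0.32 ± 0.09 (adjusted p = 0.0241). The call of Tpm1 was lost in 4 of the 8 fits without 1 array, those without either HF12 or either HF24 array (adjusted p up to 0.116), and under quantile normalization (0.18, adjusted p = 0.181). Both arrays of the later group were above both of the earlier one in 9 of 9 genes on either diet, as in 37.4% of all features on chow and 37.9% on the high-fat diet.

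**Figure D2:**
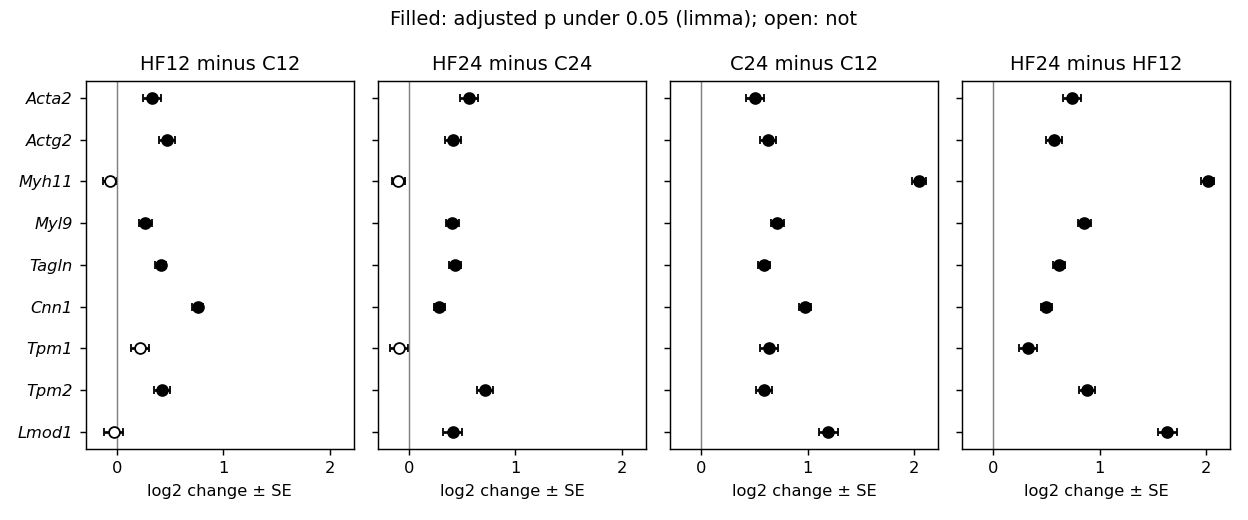
Log2 change of each of the 9 genes ± standard error in the 4 comparisons (horizontal axis); filled points have an adjusted p under 0.05 in limma and open points do not. All 9 points are filled in both comparisons of 24 with 12 weeks, where Myh11 and Lmod1 lie farthest to the right.

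Whether the diet difference itself changed with time was tested as an interaction, the difference at 24 weeks minus that at 12 weeks. Of the 9 genes 1 had a larger and 1 a smaller diet difference at 24 weeks, beside 13.9% and 16% of all features. For Cnn1 the diet difference was smaller at 24 weeks, with an interaction of −0.47 ± 0.07 (adjusted p = 0.00591), and this call held in all 8 fits without 1 array. For Lmod1 it was larger by 0.44 ± 0.13 (adjusted p = 0.0488), but 7 of those 8 fits lost the call. Only the fit without HF12 replicate 2 kept it, and the largest adjusted p was 0.133. The call was also lost with the authors' deposited table of values (0.45, adjusted p = 0.0501). The interaction did not pass for Acta2 (0.23 ± 0.12, adjusted p = 0.207), Tpm2 (0.29, adjusted p = 0.105), Tpm1 (−0.31, adjusted p = 0.105) or the remaining 4 genes. That of Tpm2 passed without C12 replicate 1 (adjusted p = 0.0373).

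Of the 9 genes 5 had more than 1 probe, and 8 further probes gave a second reading of them. Over 37650 probes fitted one by one, 15 of the 17 contractile probes were higher at 24 than at 12 weeks on chow and 0 lower, beside 24.6% of all probes higher and 21.1% lower. Between HF12 and HF24 15 were higher and 1 lower, beside 22.1% and 22.9%. For diet, 9 were higher and 0 lower at 12 weeks (beside 14.1% and 16%), and 8 were higher and 3 lower at 24 weeks (beside 14% and 17.2%). In the interaction 0 were higher and 4 lower (beside 12.7% and 15.2%). Which exon each probe lies in is not given in the sources used here.

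The 3 probes of Acta2 all rose with time. Probe A_52_P210078 rose by 0.91 ± 0.08 over time on chow (adjusted p = 3.03e-04), beside 0.51 for the brightest probe; the difference between probes was not tested. It did not pass for diet at 12 weeks (0.14, adjusted p = 0.225) or at 24 weeks (0.25, adjusted p = 0.0526). Probe A_51_P450957 passed in all 4 comparisons, with changes of 0.30 to 0.53. The 3 probes of Myh11 rose by 1.94 to 2.14 between 12 and 24 weeks on chow. At 24 weeks the 2 dimmer probes of Myh11, both matched to transcript NM_001161775, were lower on the high-fat diet. They fell by 0.35 ± 0.09 (adjusted p = 0.0252) and by 0.72 ± 0.16 (adjusted p = 0.0189), while the brightest one, matched to NM_013607, did not pass.

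For Cnn1, probe A_55_P2744265 rose by 1.16 ± 0.13 with diet at 12 weeks (adjusted p = 0.00139) and did not pass at 24 weeks (0.27, adjusted p = 0.161). Its interaction was −0.89 ± 0.18 (adjusted p = 0.0161), in the same direction as that of the brightest probe. For Tpm1, probe A_55_P2078680, matched to NM_001164251, stood at −1.11 and −0.90 in C12, −0.01 and −0.10 in HF12, 0.48 and 0.64 in C24, and 0.49 and 0.46 in HF24. It rose by 0.95 ± 0.10 with diet at 12 weeks (1.93-fold, adjusted p = 9.39e-04), where the brightest Tpm1 probe did not pass. Its interaction was −1.04 ± 0.14 (adjusted p = 0.00326). Probe A_55_P2187053, matched to NM_001164255, passed in no comparison, with changes of 0.10 to 0.31 between groups.

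The 2 probes of Tpm2 went opposite ways at 24 weeks. Probe A_51_P357013, matched to NM_009416, stood at −0.92 and −0.49 in C12, −0.60 and −0.76 in HF12, −0.84 and −0.61 in C24, and −1.56 and −1.58 in HF24. It was lowest on both HF24 arrays and overlapped among the other groups. It fell by 0.85 ± 0.16 between C24 and HF24 (adjusted p = 0.0104) and by 0.89 ± 0.16 between HF12 and HF24 (adjusted p = 0.00634). The brightest probe, A_55_P2121408, matched to NM_001277875, rose in both comparisons. Tropomyosin genes make transcripts for muscle and non-muscle cells by alternative splicing. Skeletal muscle and myoblast genes were also lower in HF24. In C24 the summed intensity of the 12 marker genes tested was 77.8 to 79.4 times the 75th percentile. In HF24 this sum was 16.3 to 16.5 times the percentile. From C12 to C24, where the probe differed by −0.02 ± 0.16 (adjusted p = 0.935), the same sum was lower too, from 201 to 208 down to 77.8 to 79.4. Their part in the result was not tested.

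**Figure D3:**
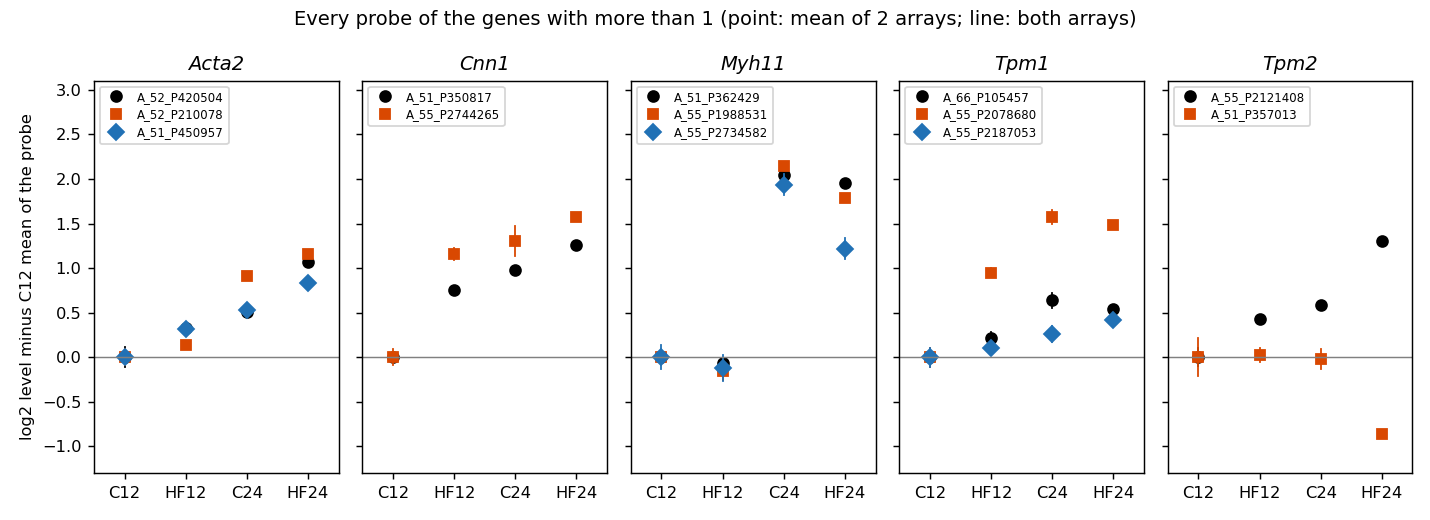
Mean log2 level of every probe of the 5 genes with more than 1, minus the C12 mean of that probe (vertical axis), in the 4 groups; bars span both arrays. The probes of Acta2 and Myh11 rise over time by unequal amounts, while those of Tpm2 part at HF24, where one is up and the other down.

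Other genes of contraction moved both ways. Of 18 regulators of contraction 17 were tested. In HF12 1 was higher and 5 lower than in C12 (median −0.12), beside 13.6% and 17.4% of all features. In HF24 5 were higher and 2 lower than in C24 (median 0.03), beside 15.1% and 19%. Between 12 and 24 weeks 8 were higher and 2 lower on chow (median 0.26), beside 23.9% and 22.2% of all features. Between HF12 and HF24 12 were higher and 1 lower (median 0.51), beside 22.5% and 24.4%. Ppp1r14a encodes CPI-17, an inhibitor of myosin phosphatase. It rose by 1.93 ± 0.08 over time on chow (adjusted p = 2.72e-05) and by 2.17 ± 0.08 on the high-fat diet (adjusted p = 2.45e-05). Kcnmb1, the smooth muscle subunit of the large-conductance potassium channel, rose by 1.59 ± 0.16 (adjusted p = 5.84e-04) and 1.93 ± 0.16 (adjusted p = 3.45e-04). The light chain kinase gene Mylk went the other way to Cnn1 at 12 weeks and fell by 0.37 ± 0.05 on the high-fat diet (adjusted p = 0.00285). The angiotensin receptor gene Agtr1a fell by 1.44 ± 0.07 in that comparison (adjusted p = 5.04e-05). With diet at 24 weeks the endothelin receptor gene Ednra rose by 0.94 ± 0.06 (adjusted p = 2.97e-04). Ppp1r12b fell by 1.07 ± 0.09 there (adjusted p = 5.91e-04), the largest change among the called regulators.

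Relatives of the 9 genes, some of muscle and some expressed broadly, were also counted. Of 21 such paralogs 9 were higher and 7 lower at 24 weeks on chow (median 0.05), beside 23.9% and 22.2% of all features. Between HF12 and HF24 11 were higher and 5 lower (median 0.25), beside 22.5% and 24.4%. With diet 4 were higher and 5 lower at 12 weeks, beside 13.6% and 17.4% of all features, and 5 higher and 4 lower at 24 weeks, beside 15.1% and 19%. The skeletal muscle leiomodin Lmod3 fell by 1.64 ± 0.06 on chow (adjusted p = 1.52e-05) and by 3.04 ± 0.06 on the high-fat diet (adjusted p = 3e-06) between 12 and 24 weeks, while Lmod1 rose in both. The skeletal actin gene Acta1 fell by 1.07 ± 0.08 between HF12 and HF24 (adjusted p = 3.17e-04), while Acta2 and Actg2 rose. Among 21 genes of dense bodies, adhesions and intermediate filaments, 13 were higher and 4 lower over time on chow (median 0.42). Between HF12 and HF24 13 were higher and 3 lower (median 0.37). The shares of all features over time are those given above for the paralogs. With diet 6 were higher and 3 lower at 12 weeks (median 0.02), beside 13.6% and 17.4% of all features. At 24 weeks 3 were higher and 6 lower (median −0.055), beside 15.1% and 19%. Desmin, Des, the intermediate filament of both smooth and skeletal muscle, fell by 1.71 ± 0.07 over time on the high-fat diet (adjusted p = 3.27e-05). Between C24 and HF24 Des fell by 1.07 ± 0.07 (adjusted p = 2.74e-04) and Pdlim3 by 2.05 (adjusted p = 5.27e-05). The fibronectin receptor gene Itga5 rose by 1.55 ± 0.16 on chow (adjusted p = 6.88e-04) and 1.22 ± 0.16 on the high-fat diet (adjusted p = 0.00197).

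Of 14 genes of SRF and myocardin transcription 13 were tested. Over time 6 were higher and 2 lower on chow, beside 23.9% and 22.2% of all features. Between HF12 and HF24 6 were higher and 0 lower, beside 22.5% and 24.4%. With diet 5 were higher and 3 lower at 12 weeks, beside 13.6% and 17.4% of all features, and 1 higher and 4 lower at 24 weeks, beside 15.1% and 19%. Srf itself was at 1.32 and 1.37 in C12, 1.60 and 1.63 in HF12, 2.47 and 2.52 in C24, and 2.37 and 2.35 in HF24. Its groups did not overlap, and it was highest in C24, not in HF24 as most of the 9 genes were. Srf rose by 1.15 ± 0.05 over time on chow (adjusted p = 3.67e-05) and by 0.74 ± 0.05 on the high-fat diet (adjusted p = 2.44e-04). With diet it rose by 0.27 ± 0.05 at 12 weeks (adjusted p = 0.0145, lost without C12 replicate 1 or either HF12 array, with adjusted p up to 0.0735), and at 24 weeks the difference of −0.14 ± 0.05 did not pass (adjusted p = 0.0991). The latter passed under quantile normalization (−0.21, adjusted p = 0.0266) and normexp (−0.21, adjusted p = 0.0268). Its interaction was −0.41 ± 0.08 (adjusted p = 0.0115).

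Myocd, the coactivator of SRF that is restricted to heart and smooth muscle, was at −3.51 and −3.53 in C12, −4.53 and −4.08 in HF12, −3.05 and −3.41 in C24, and −2.49 and −3.62 in HF24. Its 2 HF24 arrays lay farther apart than those of any other group. Its change of 1.25 ± 0.37 from HF12 to HF24 passed (adjusted p = 0.0369) but held in 1 of 8 fits without 1 array, that without HF24 replicate 2, and no other comparison of Myocd passed in the fit to all 8 arrays. Its difference of −0.78 between C12 and HF12 passed with only the groups compared (adjusted p = 0.0215) and without either HF24 array (0.0325), and its interaction passed without HF24 replicate 2 (0.0199). Klf4, a factor that represses smooth muscle genes, was lower on the high-fat diet. It fell by 0.38 ± 0.10 at 12 weeks (adjusted p = 0.0305) and by 0.43 ± 0.10 at 24 weeks (adjusted p = 0.0175). The first call was lost without C12 replicate 1 or either HF12 array (adjusted p up to 0.135), and the second without C24 replicate 1 or HF24 replicate 1 (0.084 and 0.0814). Csrp2, a LIM protein of smooth muscle, rose with diet by 0.69 ± 0.08 at 12 weeks (adjusted p = 0.00129) and 0.44 ± 0.08 at 24 weeks (adjusted p = 0.00692).

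Over time on chow 15 of 19 genes of the transforming growth factor beta response were higher and 0 lower (median 0.63). The shares of all features were 23.9% and 22.2%. Between HF12 and HF24 9 were higher and 2 lower (median 0.28), beside 22.5% and 24.4%. With diet 8 were higher and 3 lower at 12 weeks (median 0.10), beside 13.6% and 17.4%. At 24 weeks 2 were higher and 4 lower with diet (median −0.02), beside 15.1% and 19%. Inhba, an activin subunit, rose by 2.70 ± 0.07 over time on chow (adjusted p = 6.44e-06) and by 1.75 ± 0.07 on the high-fat diet (adjusted p = 3.09e-05). The ligand gene Tgfb2 rose by 1.24 ± 0.07 between HF12 and HF24 (adjusted p = 8.17e-05).

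**Figure D4:**
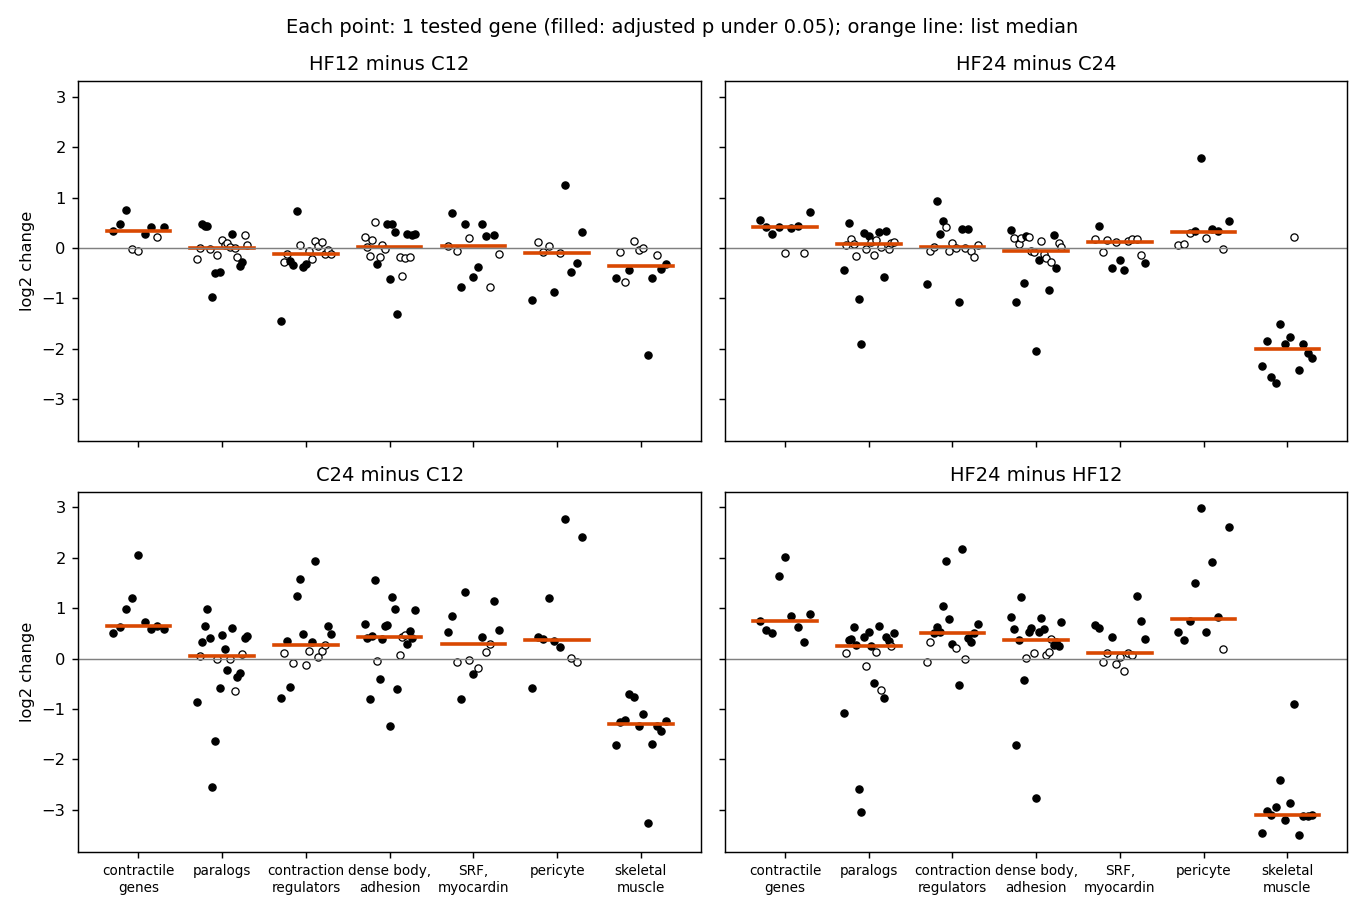
Log2 change of every tested gene of 7 lists (vertical axis) in the 4 comparisons; filled points have an adjusted p under 0.05 in limma and orange lines are list medians. The contractile genes lie above 0 in both lower panels, where the skeletal muscle genes lie below 0.

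Markers of cells that express contractile genes were read beside these results. Pericytes, the mural cells of small vessels, share Acta2, Tagln and Myl9 with smooth muscle. Of 10 pericyte genes 7 were higher and 1 lower over time on chow (median 0.36), beside 23.9% and 22.2% of all features. Between HF12 and HF24 9 were higher and 0 lower (median 0.79), beside 22.5% and 24.4%. Rgs5, a pericyte signalling gene, rose by 2.40 ± 0.08 on chow (adjusted p = 1.15e-05) and 2.62 ± 0.08 on the high-fat diet (adjusted p = 1.16e-05). With diet, 2 pericyte genes were higher and 4 lower at 12 weeks (median −0.10), where 6 of the contractile genes rose. At 24 weeks 5 were higher and 0 lower (median 0.32). The shares of all features with diet were 13.6% higher and 17.4% lower at 12 weeks, and 15.1% and 19% at 24 weeks. The potassium channel gene Kcnj8 fell by 0.87 ± 0.09 with diet at 12 weeks (adjusted p = 0.00104) and rose by 1.78 ± 0.09 at 24 weeks (adjusted p = 1.43e-04). The summed intensity of the pericyte list, relative to the 75th percentile, was 81.4 to 81.6 in C12, 70.3 to 70.7 in HF12, 93.6 to 97.5 in C24 and 107 to 110 in HF24. That of the contractile genes was 429 to 461, 569 to 571, 666 to 681 and 921 to 940, a sum that the brightest probes dominate. All 10 pericyte genes were well above background in every group, and their part in the contractile changes was not tested.

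Markers of other cells moved as well. Beside the counts below, 13.6% of all features were higher and 17.4% lower with diet at 12 weeks, and 15.1% and 19% at 24 weeks. Over time 23.9% of all features were higher and 22.2% lower on chow, and 22.5% and 24.4% between HF12 and HF24. Of 12 skeletal muscle and myoblast genes tested 0 were higher and 6 lower with diet at 12 weeks, 11 lower at 24 weeks, and 12 lower over time on either diet. Their summed intensity was 201 to 208 in C12, 148 to 155 in HF12, 77.8 to 79.4 in C24 and 16.3 to 16.5 in HF24. Among them Pax7 was not well above background in HF12, C24 and HF24, and Ckm not in HF24. Myf5, which was not tested, was not well above background in any group. The 10 endothelial genes had summed intensities of 36.0 to 37.6, 28.6 to 29.7, 61.3 to 64.3 and 74.1 to 76.9 in the same order of groups. The 11 macrophage genes had 62.0 to 63.0, 308 to 309, 125 to 131 and 225 to 229, and Cx3cr1 among them was not well above background in C12 and C24. The 8 mature adipocyte genes had 635 to 638, 190 to 203, 136 to 138 and 99.0 to 102, and in HF24 Adipoq, Retn and Lipe were not well above background. Over time, 8 endothelial genes were higher and 1 lower of 10 on chow, and 9 and 0 between HF12 and HF24, and 8 of 8 adipocyte genes were lower on either diet. Macrophage genes were 10 higher and 0 lower of 11 over time on chow, and 1 higher and 10 lower between HF12 and HF24. Of 6 keratinocyte and epithelial genes 4 were tested, and their sum was far brighter in C24 (5.07 to 5.14) than in the other groups (0.219 to 0.551). Cdh1 was not well above background in any group, Epcam not in C12, HF12 and C24, and Krt8 not in HF24. The 5 Schwann cell genes had 3.12 to 3.28 in C12, 2.93 to 3.01 in HF12, 2.95 to 3.12 in C24 and 1.25 in HF24. Of 5 mesothelial genes 3 were tested, with Upk3b and Lrrn4 not well above background in any group. All 3 were lower in HF24 than in C24 (median −1.02), among them Msln (−2.20 ± 0.08, adjusted p = 5.61e-05). The call of Krt19 (−0.243, adjusted p = 0.04775) was lost with the authors' table (adjusted p = 0.0518) and with no filter (0.1105). It was also lost with the replicate number as a block (0.083) and with only the groups compared (0.119). No fit without 1 array kept it. The call of Wt1 was lost with only the groups compared (−1.017, adjusted p = 0.0655) and without C24 replicate 1 or C24 replicate 2. Without 1 array the difference ranged from −0.308 to −0.178 for Krt19 and from −1.345 to −0.689 for Wt1. Of the 9 stromal genes 2 were higher and 5 lower in HF12 than in C12, with the ecto-nucleotidase gene Nt5e at −3.30 ± 0.09 (adjusted p = 4.89e-06) and Alcam at 1.88 ± 0.09 (adjusted p = 3.88e-05). Stromal genes were 1 higher and 4 lower in HF24 than in C24, 3 higher and 3 lower over time on chow, and 8 higher and 1 lower between HF12 and HF24. What part any of these cells had in the contractile changes was not tested.

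For each member whose group means spanned at least 1 log2 unit, the genes nearest in pattern were found by the root mean square difference over the 8 arrays, after each gene was centred on its own mean. The arrays share 1 slide and 4 groups, so these are descriptions. Nearest to Acta2 was Acot7 (0.0379), which was also nearest to Tpm2 (0.0838). Nearest to Tagln were Nxph4 (0.0381) and the glycolytic genes Pgam1 (0.0626) and Eno1 (0.0637). Nearest to Cnn1 were Rftn1 (0.0588), Prag1 (0.0638) and Dusp6 (0.066), and nearest to Myl9 were Nefm (0.0462), the actin crosslinker Actn1 (0.0517) and Dysf (0.0531). Nearest to Lmod1 were the pericyte gene Higd1b (0.0693), Gimap1 (0.0765) and Egflam (0.0858). Myh11 had no gene as near, with Tac1 the closest at 0.153. Actg2 lay nearest to Gm6498 (0.0513).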

How the data were processed

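Total RNA of 8 samples was labelled with Cy3 and read on 1 slide in 1 scan. Per the file headers, spots were quantified with Agilent Feature Extraction 11.0.1.1 (the version also in the submitters' processing notes). Per the file headers, the deposited processed intensity has local background and spatial trend removed array by array, and arrays were not scaled to each other. The authors' deposited value table holds log2 values; over 38346 matched probes each column equalled log2 of the processed intensity plus 1 constant, −9.99 to −9.79 (within 0.01 for 100% of probes). Its genes are not centred, its column medians were −1.44 to −1.33, and the rule behind the constant is not given in the sources used here. Probes were named by transcript accession through a reference table for GRCm38.p6, which gave 1 symbol to 32907 of 56413 probes. The headers name build mm9, so probe coordinates are not printed.

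Control spots and spots flagged as outliers were left out, which removed 192 probes. Values are log2 processed intensity minus the array's 75th percentile. Probes well above background on both arrays of at least 1 group were kept (37650), and the brightest of them stood for each gene (29585 features, 16732 with a symbol). Within groups, arrays correlated across genes at r = 0.995 to 0.998. A model with a mean for each group was fitted to the 8 arrays with limma 3.58.1 (R 4.3.3; 4 residual and 1.9 prior degrees of freedom), and two-sided p-values were adjusted by Benjamini-Hochberg over all features. The script was tested on simulated data. Python 3.11.15 with pandas 2.3.3 and matplotlib 3.10.9 was used elsewhere.

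The genes and lists were chosen with earlier results of these data known. Genes outside the 9 were picked by a rule: up to 3 called genes of each list with the largest change in a comparison, and the 3 nearest genes in pattern. Srf, Myocd and Klf4 were always included. Only some of the genes so picked are named above. Those left out include Abcc9 (−1.04) and Fhl1 (−0.76) in HF12 against C12, and Ndufa4l2 (2.78) in C24 against C12. Alternatives were quantile normalization, normexp background correction (offset 50) with quantile normalization, the authors' table, no filter or a filter on all 8 arrays, every probe, an intensity trend, only the groups compared, a block for the replicate number, and each array left out in turn. Normexp used the deposited median intensity, since the files hold no mean signal. The summed intensities of marker lists are linear intensities over the 75th percentile.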

Additional observations from a re-analysis of the deposited data

Results flagged for a closer look

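The diet difference changed with feeding time for 2 of the 9 genes and for Srf, by the interaction test of limma over all features, beside 13.9% of all features with a larger and 16% with a smaller diet difference at 24 weeks. The share among the 9 is not above that of all features. For Cnn1 it was −0.47 ± 0.07 (SE, 2 arrays per group; adjusted p = 0.00591), with diet differences of 0.76 at 12 weeks and 0.29 at 24 weeks. For Lmod1 it was 0.44 ± 0.13 (adjusted p = 0.0488), from −0.03 to 0.41, and 7 of 8 fits without 1 array lost the call. For Srf it was −0.41 ± 0.08 (adjusted p = 0.0115), from 0.27 to −0.14.

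The same test over all probes singled out 3 further readings. Of the 17 contractile probes 0 passed with an interaction above 0 and 4 with one below 0, beside 12.7% and 15.2% of all probes. The probe of Lmod1 did not pass in this fit (adjusted p = 0.05165). Probe A_55_P2744265 of Cnn1 had an interaction of −0.89 ± 0.18 (adjusted p = 0.0161), with the sign of the brightest Cnn1 probe. Probe A_55_P2078680 of Tpm1 had −1.04 ± 0.14 (adjusted p = 0.00326), while the brightest Tpm1 probe had −0.31 and did not pass. Probe A_51_P357013 of Tpm2 had −0.87 ± 0.22 (adjusted p = 0.0343), while the brightest Tpm2 probe had 0.29 and did not pass.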

How the results depend on the processing

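Of the 9 contractile genes, with the same probes throughout, 9 stayed called for time on chow under every alternative run, 8 or 9 for time on the high-fat diet, and 5 to 7 for diet at 24 weeks. For diet at 12 weeks 3 to 5 were called without 1 array, and 4 to 7 under the other settings. The interaction was called for 1 gene, Cnn1, with the authors' table, with no filter, with the replicate number as a block, and with every kept probe, for 1 or 2 without 1 array, and for 3 with an intensity trend or normexp.

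Between groups, the deviations of same-numbered arrays correlated at −0.08 to 0.17. These correlations cannot decide whether the numbers pair the arrays, since shared mice or cultures need not give a strong one. With the block, the calls were 5 (diet at 12 weeks), 7 (diet at 24 weeks), 9 and 9 (time) and 1 (interaction); Acta2 lost its 12-week call (adjusted p = 0.0515).

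The 12-week call of Acta2 was also lost under quantile normalization (adjusted p = 0.11), normexp (0.0556), no filter (0.0763) and only the groups compared (0.0732). Myl9 lost its 12-week call with no filter (adjusted p = 0.0554) and with only the groups compared (0.07155). Tpm1 lost its call for time on the high-fat diet under normexp (adjusted p = 0.16). Some uncalled values changed sign: with normexp, the interaction of Myh11 became 0.027 and the 12-week diet difference of Lmod1 became 0.006. By another probe, Tpm1 lost its call for time on chow (A_55_P2187053, 0.256, adjusted p = 0.0916). In the same way the interaction of Acta2 became −0.022, and for Tpm1 the diet difference at 24 weeks became 0.16 and the interaction 0.057. By probe A_51_P357013 Tpm2 gave −0.848 for diet at 24 weeks, −0.019 for time on chow, −0.889 for time on the high-fat diet and −0.87 for the interaction. Without 1 array the interactions of Tagln (−0.011 to 0.058), Myh11 (−0.086 to 0.013) and Actg2 (−0.137 to 0.019), the 12-week diet difference of Lmod1 (−0.141 to 0.082) and the 24-week diet difference of Myocd (−0.396 to 0.736) changed sign. Over the other settings 376 values of the 9 genes kept their direction and their side of the threshold, 14 lost a call, 4 gained one and 2 changed sign; without 1 array these counts were 326, 27, 1 and 6. The causes were not tested. With no filter on dim probes the median of all features was 0.145 for time on chow, beside 0.016 with the filter. For time on the high-fat diet it was 0.125, beside −0.012.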
